A study of Drosophila melanogaster with 9 samples.

Results

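Ovary RNA of 2 kinds of mutant Drosophila melanogaster was set against that of control flies, to find changes that both mutants share. The data used were all 9 libraries of the series, 6 from mutants and 3 from controls, and the members were chosen by genotype label alone. The tested quantity was the mean of the DPLG1 mutant and DPLG4 mutant group means minus the control mean, called here the pooled contrast, so that each mutant has equal weight. The DPLG1 mutant flies carry a mutation of DPLG1 (replicates 22, 5 and 7), the DPLG4 mutant flies a mutation of DPLG4 (replicates 15, 3 and 7), and the controls are w1118 flies (replicates 1, 2 and 3), all kept at 25 °C. The labels call the libraries of a group biological replicates. The sample titles mark both mutants with KO, for knockout, and give the numbers used here for the replicates. What these numbers stand for is not stated. The sources used here also do not give how each allele was made, the strain in which it was made or the age of the flies. A difference between the w1118 stock and both mutant lines therefore cannot be told apart from an effect of the mutations.

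PIF elements are DNA transposons, and their transposase cuts and pastes the element through a catalytic domain and a DNA-binding domain. A host genome can keep such a transposase gene after the element itself is gone and use the protein for its own ends, which is called domestication. The DPLG genes of Drosophila are PIF transposase genes of this kind, and the series asks about their part in ovary and nervous system regulation. In the fly ovary, germline cells provision an oocyte while the surrounding follicle cells secrete the vitelline membrane and the chorion of the eggshell.

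The libraries had the RNA of ovary. The germline markers osk, orb, aub and bru1 summed to 2648 to 3077 CPM (gene counts scaled to library size) in DPLG1 mutants, 2759 to 3145 CPM in DPLG4 mutants and 2690 to 3186 CPM in controls. Neuronal markers summed to at most 1.35 CPM and testis markers to at most 0.280 CPM in any library, with the testis genes Mst84Da, dj and ProtA at 0 counts throughout. Gene counts per library were 44654859 to 95751320 in mutants and 18078883 to 93767502 in controls. Control replicate 1 stood apart, with 70.7% of its reads not uniquely placed, against 7.61% to 10% in the other libraries.

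Few genes differed between the pooled mutants and control. Of 8427 genes tested, 16 were called (0.190%) at an edgeR adjusted p under 0.05, with 5 higher (0.0593%) and 11 lower (0.131%) in mutants. Of the 16, 6 (0.0712% of genes tested) also had an unadjusted p under 0.05 with the same sign in each mutant, and these were the genes with a change shared by both mutants. They were FBgn0042174 and Gabat, which were higher (0.0237%), and CG7492, qkr58E-1, CG43064 and gol, which were lower (0.0475%). The 2 mutants were compared with the same 3 control libraries, so a likeness of their changes is not independent evidence. Taken singly, 9 genes (0.107%) were called in DPLG1 mutants and 36 (0.427%) in DPLG4 mutants against control. An unadjusted p under 0.05 in the pooled contrast was met by 675 genes (8.01%) on the higher side and 672 (7.97%) on the lower. The number of calls depended on the test: DESeq2 called 130 higher (1.45%) and 87 lower (0.973%), limma voom with sample quality weights 2121 and 2217, and edgeR with the 6 mutant libraries as 1 group 0 and 0, with 668 and 576 at an unadjusted p under 0.05.

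FBgn0042174, a gene with no symbol or position in the annotation used, had the clearest shared change. It stood at 196, 194 and 205 CPM in the DPLG1 mutant libraries and at 121, 114 and 125 CPM in the DPLG4 mutant libraries, against 42.2, 37.8 and 34.5 CPM in controls. Every mutant library lay far above every control, and the 3 groups did not overlap. The pooled contrast was 4.04-fold (log2 2.01, SE 0.09, edgeR adjusted p = 1.40e-05). It was the only gene called in each mutant by itself, with log2 fold changes of 2.38 (SE 0.10) in DPLG1 mutants and 1.65 (SE 0.10) in DPLG4 mutants. The 2 mutants also differed from each other (log2 0.73, edgeR adjusted p = 0.0122). The call was lost only with the 6 mutant libraries as 1 group (adjusted p = 0.0555), among the alternatives that could include this gene.

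Gabat encodes GABA transaminase, the enzyme that breaks down the inhibitory transmitter GABA. Its level was 232, 203 and 206 CPM in DPLG1 mutants and 403, 390 and 354 CPM in DPLG4 mutants, against 168, 174 and 166 CPM in controls. No mutant library overlapped the controls, and the DPLG4 mutants lay above the DPLG1 mutants as well. The pooled contrast was 1.69-fold (log2 0.75, SE 0.08, edgeR adjusted p = 0.00752), made up of a log2 fold change of 0.33 in DPLG1 mutants and 1.17 in DPLG4 mutants, which differed (log2 -0.84 for DPLG1 mutant minus DPLG4 mutant, edgeR adjusted p = 0.00337). Gabat lies on 3L at 19997714 to 20000686, minus strand, and its exons overlap Tom20 on the other strand. Since the strand setting of the counting is not known, reads of such a pair may not have been kept apart. Without control replicate 1, 2 or 3 the adjusted p was 0.0564, 0.0770 and 0.0940. It was 0.0555 with upper quartile scaling and 0.323 with the 6 mutant libraries as 1 group.

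The gene qkr58E-1 encodes a KH-domain RNA-binding protein of the quaking-related family, and it was lower in both mutants by a similar amount. It stood at 43.0, 46.9 and 45.6 CPM in DPLG1 mutants and 41.6, 51.6 and 56.8 CPM in DPLG4 mutants, against 94.5, 75.6 and 86.6 CPM in controls. The highest mutant library lay below the lowest control, and the mutant groups overlapped each other. Its pooled contrast was 1.80-fold lower (log2 -0.85, SE 0.11, edgeR adjusted p = 0.0302), and the mutants were not called different from each other (log2 -0.15, edgeR adjusted p = 0.847). The gene lies on 2R at 22412556 to 22415518, minus strand, with exons that overlap PolE4 on the other strand. Its call was lost without DPLG1 mutant replicate 22, 5 or 7 (adjusted p = 0.110, 0.113 and 0.0837), without DPLG4 mutant replicate 3 (0.0944) and without control replicate 1, 2 or 3 (0.171, 0.0904 and 0.169). It was also lost with upper quartile scaling (0.0571) and with the 6 mutant libraries as 1 group (0.0691).

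At low expression, gol and CG43064 were lower in both mutants. The goliath gene gol encodes a RING-finger ubiquitin ligase of the membrane, and lies on 2R at 25072627 to 25084347, minus strand. It had 0.355, 0.172 and 0.645 CPM in DPLG1 mutants and 0.511, 0.155 and 0.394 CPM in DPLG4 mutants, against 2.43, 3.16 and 2.98 CPM in controls. The mutant libraries overlapped each other and lay below all controls, with a pooled contrast of log2 -2.96 (SE 0.42, 7.78-fold lower, edgeR adjusted p = 0.0355). CG43064, of no function stated here, lies on 3L at 11834721 to 11836721, minus strand. It had 0.769, 0.364 and 0.711 CPM in DPLG1 mutants and 0.198, 0.248 and 0.118 CPM in DPLG4 mutants, against 3.97, 2.10 and 1.37 CPM in controls. Here the controls themselves spread widely, but none came as low as a mutant (log2 -2.84, SE 0.38, edgeR adjusted p = 0.0302). The mutants were not called different from each other for gol (log2 0.16, adjusted p = 0.961) or CG43064 (log2 1.67, adjusted p = 0.306).

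Both calls were sensitive to single libraries. The call of gol was kept only without DPLG1 mutant replicate 7 (adjusted p = 0.0397), and that of CG43064 only without control replicate 3 (0.0381). Leaving out DPLG1 mutant replicate 22 or 5 gave gol adjusted p = 0.142 and 0.0983, DPLG4 mutant replicate 15, 3 or 7 gave 0.0560, 0.0823 and 0.0662, and control replicate 1, 2 or 3 gave 0.159, 0.262 and 0.184. For CG43064, leaving out DPLG1 mutant replicate 22, 5 or 7 gave 0.100, 0.0983 and 0.0757, DPLG4 mutant replicate 15, 3 or 7 gave 0.0860, 0.0856 and 0.0583, and control replicate 1 or 2 gave 0.159 and 0.168. In each of these fits gol and CG43064 kept a negative log2 fold change, from -3.22 to -2.77 for gol and from -3.12 to -2.33 for CG43064. Both calls were also lost with upper quartile scaling (edgeR adjusted p = 0.0641 each). With the 6 mutant libraries as 1 group the adjusted p was 0.0691 for gol and 0.257 for CG43064.

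**Figure D1:**
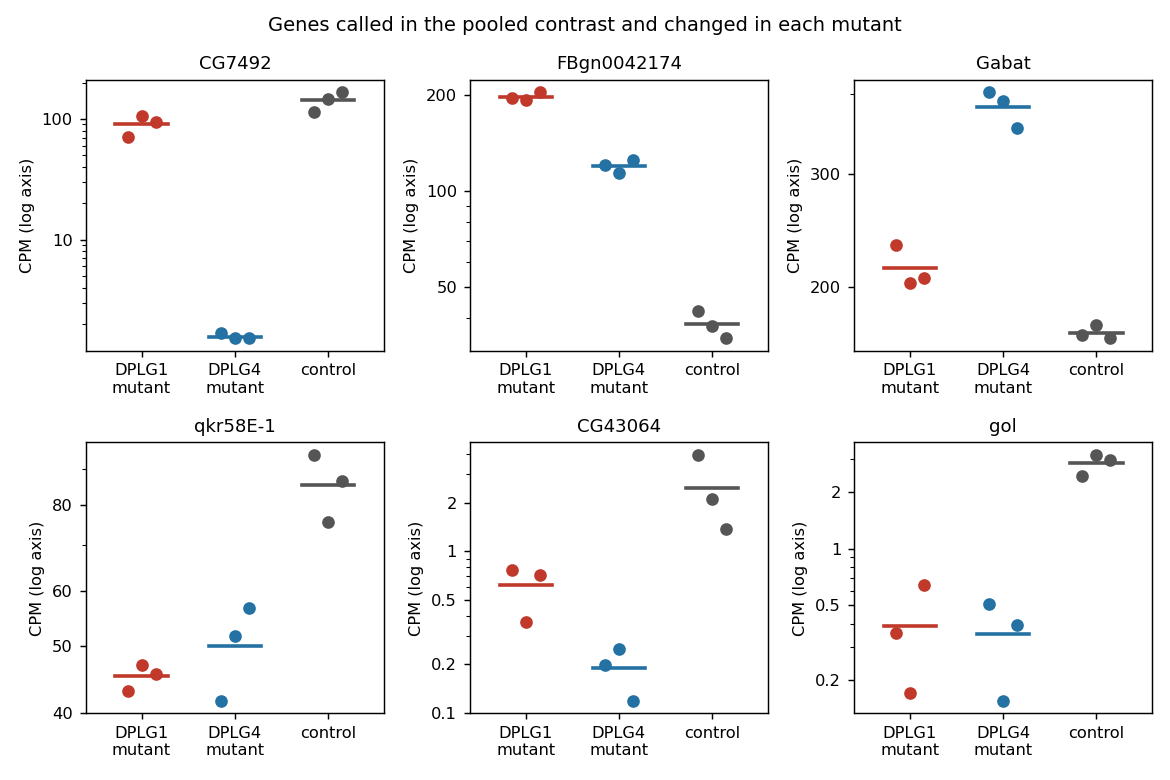
Level of the 6 genes called in the pooled contrast and changed in each mutant, in CPM on a log axis, with a point for each of the 3 libraries of a group and a bar at the group mean. In FBgn0042174 and Gabat all mutant libraries lie above the controls, and in CG7492, qkr58E-1, CG43064 and gol all lie below them, with CG7492 far lower in its own mutant (DPLG4) than in DPLG1 mutants.

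The DPLG genes themselves come next, since they check the labels. DPLG1 is CG12253 in the annotation, on the plus strand of 2L between 10987806 and 10989241. Counts of CG12253 were 0, 0 and 1 in DPLG1 mutants and 4654, 6157 and 2953 in DPLG4 mutants, against 1627, 5550 and 943 in controls. Its pooled call (edgeR adjusted p = 7.45e-06) thus comes from its own mutant, and the size of the fitted fold change depends on the prior count. DPLG4 is CG7492, on 3L at 7651866 to 7654752, minus strand. It had 71.3, 106 and 95.2 CPM in DPLG1 mutants and 1.68, 1.52 and 1.52 CPM in DPLG4 mutants, against 115, 145 and 167 CPM in controls. CG7492 was thus near absent in its own mutant, and in DPLG1 mutants all 3 libraries lay below the controls as well.

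That lower level of CG7492 in DPLG1 mutants (log2 -0.65, SE 0.17) had an unadjusted p of 0.00509 and did not pass the edgeR test by itself (adjusted p = 0.258). CG7492 counts as shared through this unadjusted p, and the mutants differed strongly (log2 5.85, edgeR adjusted p = 3.05e-06). Its exons overlap those of PGRP-SD, an immune receptor gene, on the other strand. PGRP-SD stood at 0.511 ± 0.0424 CPM in DPLG1 mutants, 0.0199 ± 0.0261 CPM in DPLG4 mutants and 0.600 ± 0.0349 CPM in controls (SD, n = 3 each).

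The remaining DPLG genes were not called. DPLG3, which is CG32095, had 58.7 ± 3.0 CPM in DPLG1 mutants, 58.5 ± 3.97 CPM in DPLG4 mutants and 50.8 ± 1.89 CPM in controls (log2 0.20, edgeR adjusted p = 0.300). All 6 mutant libraries of CG32095 lay above the controls, and its exons overlap those of the ribosomal protein gene RpL10Ab on the other strand. RpL10Ab was itself at 768 ± 56.5 CPM in DPLG1 mutants, 919 ± 130 CPM in DPLG4 mutants and 581 ± 58.1 CPM in controls. DPLG2, which is CG32187, had at most 4 counts in any library and was not tested.

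The other 10 called genes did not have a shared change, since the difference lay in 1 of the mutants. Each of them, CG12253 included, was called different between the mutants, as were FBgn0042174, CG7492 and Gabat among the shared genes, 13 of 16 in all, where 53 of all genes tested (0.629%) were. A large difference in a single mutant is enough to pass the pooled test, since the contrast averages the mutants. In 6 of these genes, all on 3L, it was the DPLG4 mutants that stood apart from control.

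The gene pst (pastrel), known for resistance to RNA viruses, stood at 79.6 ± 4.05 CPM in DPLG1 mutants, 2.10 ± 0.369 CPM in DPLG4 mutants and 71.1 ± 6.78 CPM in controls (pooled log2 -2.46, SE 0.11, edgeR adjusted p = 1.39e-05). CG14985 stood at 43.1 ± 4.37, 4.57 ± 0.476 and 36.9 ± 3.68 CPM in DPLG1 mutants, DPLG4 mutants and controls (pooled log2 -1.39, adjusted p = 0.000625), and CG7565 at 45.0 ± 3.94, 6.50 ± 0.980 and 39.7 ± 2.70 CPM in the same order (pooled log2 -1.22, adjusted p = 0.00225). For these 3 genes the mean of DPLG1 mutants was above that of controls, so the negative pooled value describes DPLG4 mutants alone. CG4098, whose exons overlap Arts, was at 0.137 ± 0.0503 CPM in DPLG1 mutants, 10.8 ± 0.354 CPM in DPLG4 mutants and 0.117 ± 0.0105 CPM in controls (pooled log2 3.44, adjusted p = 0.00109). CG10654, whose exons overlap vih, was at 2.25 ± 0.563 CPM in DPLG1 mutants, 11.2 ± 1.25 CPM in DPLG4 mutants and 1.82 ± 0.195 CPM in controls (pooled log2 1.48, adjusted p = 0.0302). The UDP-glycosyltransferase gene Ugt305A1 completed this set, at 2.18 ± 0.366 CPM in DPLG1 mutants, 0.332 ± 0.0622 CPM in DPLG4 mutants and 2.45 ± 0.553 CPM in controls (pooled log2 -1.52, adjusted p = 0.0343).

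DPLG1 mutants supplied the others. Arc2, a capsid gene derived from a retrotransposon, was at 24.1 ± 2.19 CPM in DPLG1 mutants, 7.77 ± 1.32 CPM in DPLG4 mutants and 7.23 ± 0.301 CPM in controls (pooled log2 0.92, edgeR adjusted p = 0.0343). Its neighbour Arc1 was at 131 ± 21.8, 19.3 ± 0.976 and 27.6 ± 6.15 CPM in DPLG1 mutants, DPLG4 mutants and controls and was not called (pooled log2 0.86, adjusted p = 0.123), with the mutants on opposite sides of control. CG16957 was at 0.0962 ± 0.0427 CPM in DPLG1 mutants, 4.79 ± 1.52 CPM in DPLG4 mutants and 3.04 ± 0.372 CPM in controls (adjusted p = 0.0302), and the antisense RNA gene asRNA:CR45330 at 0.183 ± 0.0147, 1.79 ± 0.277 and 1.86 ± 0.445 CPM in that order (adjusted p = 0.0272). Of the genes of a single mutant, asRNA:CR45330, CG16957, CG10654, Arc2 and Ugt305A1 lost the pooled call under 8, 6, 7, 7 and 9 of 9 fits that left out 1 library, with adjusted p up to 0.130, 0.227, 0.262, 0.262 and 0.259. CG12253, CG7492, pst, FBgn0042174, CG14985, CG4098 and CG7565 kept the call in all 9.

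**Figure D2:**
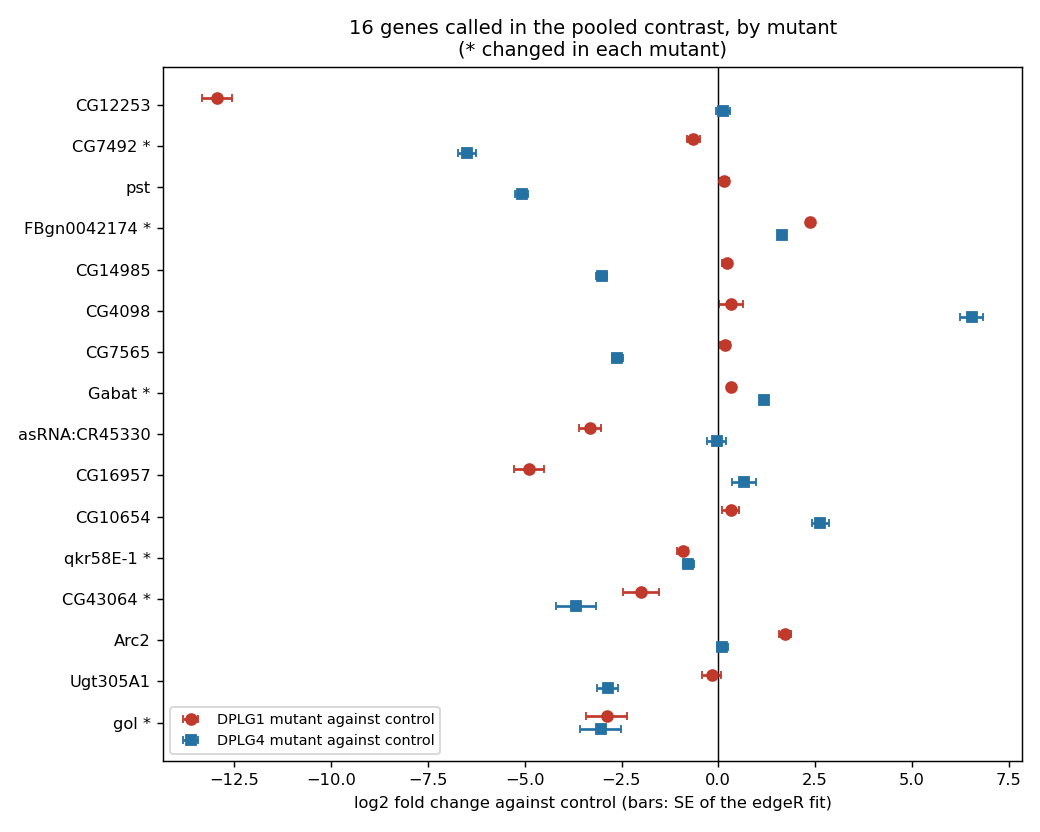
Log2 fold change against control in DPLG1 mutants (circles) and DPLG4 mutants (squares) for the 16 genes called in the pooled contrast, with bars of 1 standard error of the edgeR fit. A star marks the 6 genes changed in each mutant. For the other 10 genes the value nearer 0 lies between -0.17 and 0.66, and the value of CG12253 in DPLG1 mutants rests on 1 count.

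By position, 13 called genes were placed on a chromosome and were not a targeted gene. Of them, 8 lay on 3L (61.5%), which holds 19.1% of the placed genes tested and carries CG7492, 3 on 2R and 2 on 2L, and none on 3R, 4 or X. Among the 4 placed genes of the shared set, CG43064 and Gabat lay on 3L and qkr58E-1 and gol on 2R. This is a description without a test.

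Because only 5 genes were called higher, the 5 with the next smallest p among genes higher in mutants are given here as not passing. They were CG12519 (pooled log2 2.08, edgeR adjusted p = 0.0756), FBgn0029128 (1.31, 0.0781), nom (0.72, 0.0881), CG5245 (1.06, 0.0922) and Drep4 (0.79, 0.0922), a gene of the DNA fragmentation factor family. FBgn0029128 stood at 2.53, 3.31 and 3.25 CPM in DPLG1 mutants and 1.98, 1.65 and 1.40 CPM in DPLG4 mutants, against 0.767, 0.964 and 0.973 CPM in controls. The gene nom stood at 25.8, 21.3 and 25.2 CPM in DPLG1 mutants and 32.7, 34.8 and 27.3 CPM in DPLG4 mutants, against 14.9, 17.9 and 17.5 CPM in controls. In FBgn0029128 and nom every mutant library lay above the controls. In CG12519, CG5245 and Drep4 the groups overlapped, and the mutants differed from each other (edgeR adjusted p = 0.00319, 0.00841 and 0.0135).

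Over all genes, the 6 mutant libraries lay wholly above the 3 controls for 418 genes (4.96%) and wholly below them for 266 (3.16%). By DESeq2, 100 genes (1.12% of 8945) were called higher and 66 (0.738%) lower with a change in each mutant, all 6 shared edgeR genes among them. The higher ones include Jon65Aiii, Jon25Bii and LysE, with 0 counts in all controls, DPLG1 mutant replicate 22 and DPLG4 mutant replicate 7. In these genes mutants and controls overlapped (edgeR adjusted p = 0.334, 0.348 and 0.341), so such a call can rest on a few libraries. These genes and those named next did not pass edgeR and were chosen after their values were seen. The splicing regulator tra2 of the sex determination pathway was at 32.9 ± 1.21 CPM in DPLG1 mutants, 30.6 ± 3.57 CPM in DPLG4 mutants and 21.1 ± 2.11 CPM in controls (log2 0.59, edgeR adjusted p = 0.105, DESeq2 0.000363), and its exons overlap Blos1. SmD3, which encodes a core protein of the spliceosome, was at 84.2 ± 10.4 CPM in DPLG1 mutants, 106 ± 9.63 CPM in DPLG4 mutants and 142 ± 13.7 CPM in controls (log2 -0.58, edgeR adjusted p = 0.122, DESeq2 0.000709).

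The ion channel gene Ih, which encodes a hyperpolarization-activated cation channel, was at 4.15 ± 2.05 CPM in DPLG1 mutants, 9.09 ± 0.692 CPM in DPLG4 mutants and 16.2 ± 1.81 CPM in controls (log2 -1.40, edgeR adjusted p = 0.101, DESeq2 2.74e-05). The snoRNA host gene Uhg5 was at 32.7 ± 8.25 CPM in DPLG1 mutants, 32.4 ± 3.35 CPM in DPLG4 mutants and 17.5 ± 2.96 CPM in controls (log2 0.89, edgeR 0.138, DESeq2 0.000427). The pooled log2 value was above 0 for all 7 host genes of this kind, its median was 0.54 (0.35 with the trend with exon length removed), and 5 had no overlap between mutants and controls. Over all genes, 4.96% lay wholly above the controls. Summed, the host genes overlapped, at 194 to 300 CPM in mutants and 149 to 247 CPM in controls, with control replicate 1 at 247 CPM. For tra2, SmD3, Ih and Uhg5 the mutants lay on the same side of control.

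Chorion genes, which late follicle cells use to build the outer eggshell, lay above control throughout, though none was called by edgeR. The list holds 23 known or putative chorion genes, and all 23 were tested. Summed, they stood at 1163, 1610 and 2158 CPM in DPLG1 mutants and 1981, 2570 and 1493 CPM in DPLG4 mutants, against 872, 648 and 347 CPM in controls. The lowest mutant library lay above the highest control. The pooled log2 value was above 0 for all 23, where it was for 50.6% of all genes, and the median was 1.38 (1.5 in DPLG1 mutants, 1.26 in DPLG4 mutants), where that of all genes tested was 0.00. Of the 23, 16 had an unadjusted p under 0.05, DESeq2 called 9, and in 6 the mutant libraries all lay above the controls. The shares of all genes on the higher side were 8.01%, 1.45% and 4.96%.

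Cp36, a major chorion protein gene of the X cluster, was at 320, 361 and 334 CPM in DPLG1 mutants and 393, 311 and 167 CPM in DPLG4 mutants, against 151, 120 and 57.2 CPM in controls (log2 1.52, SE 0.34, edgeR adjusted p = 0.192). Cp16 of the third-chromosome cluster was at 33.7, 101 and 106 CPM in DPLG1 mutants and 59.2, 90.1 and 62.7 CPM in DPLG4 mutants, against 19.4, 31.4 and 13.4 CPM in controls (log2 1.80, SE 0.42, adjusted p = 0.202). In both genes the mutants lay above every control, while the libraries within each group spread by up to several times. Cp19 was at 261 ± 124 CPM in DPLG1 mutants, 302 ± 119 CPM in DPLG4 mutants and 89.7 ± 25.7 CPM in controls (log2 1.64, adjusted p = 0.217), and CG13114 at 31.1 ± 9.66, 20.9 ± 13.7 and 7.70 ± 3.10 CPM (log2 1.70, adjusted p = 0.247). The chorion median stayed between 1.04 and 1.83 when 1 library was left out and was 1.26 with the trend with exon length removed. In whole ovaries, more late follicle cells and more of these RNAs per cell cannot be told apart.

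The enzymes and the earlier eggshell layer gave a partial match. The yellow-family genes yellow-g and yellow-g2, needed for a rigid eggshell, were at 25.0 ± 5.0 and 21.4 ± 9.76 CPM in DPLG1 mutants, 20 ± 12.8 and 13.2 ± 11.3 CPM in DPLG4 mutants, and 7.13 ± 2.43 and 4.16 ± 1.17 CPM in controls. Their pooled log2 values were 1.63 and 2.0 (edgeR adjusted p = 0.217 and 0.255), and every mutant library lay above the controls. The peroxidase gene Pxt had a log2 fold change of 0.07. Vitelline membrane genes summed to 420, 571 and 685 CPM in DPLG1 mutants and 849, 913 and 731 CPM in DPLG4 mutants, against 656, 647 and 502 CPM in controls. The DPLG1 mutants overlapped the controls and the DPLG4 mutants did not, and of 11 genes none had an unadjusted p under 0.05 in the pooled contrast (median 0.22, with -0.18 in DPLG1 mutants and 0.69 in DPLG4 mutants). The vitelline membrane median was 0.49 without control replicate 1, 0.05 without control replicate 3 or DPLG1 mutant replicate 7, and 0.13 and 0.14 without DPLG4 mutant replicates 15 and 3.

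Yolk genes had no common direction. The 6 genes, which encode yolk proteins and proteins of yolk uptake, summed to 1010, 1301 and 1398 CPM in DPLG1 mutants and 1375, 1572 and 1996 CPM in DPLG4 mutants, against 1418, 1513 and 1872 CPM in controls. Mutants and controls overlapped. The median of 0.06 turned to -0.09 with the length trend removed. The follicle cell markers, a list that shares Cp36 with the chorion list, summed to 502 to 690 CPM in DPLG1 mutants, 583 to 987 CPM in DPLG4 mutants and 283 to 569 CPM in controls, and their part in the chorion result was not tested. Of these markers, tj was at 5.6, 10.8 and 5.42 CPM and Fas3 at 4.33, 4.07 and 2.16 CPM on average in DPLG1 mutants, DPLG4 mutants and controls.

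**Figure D3:**
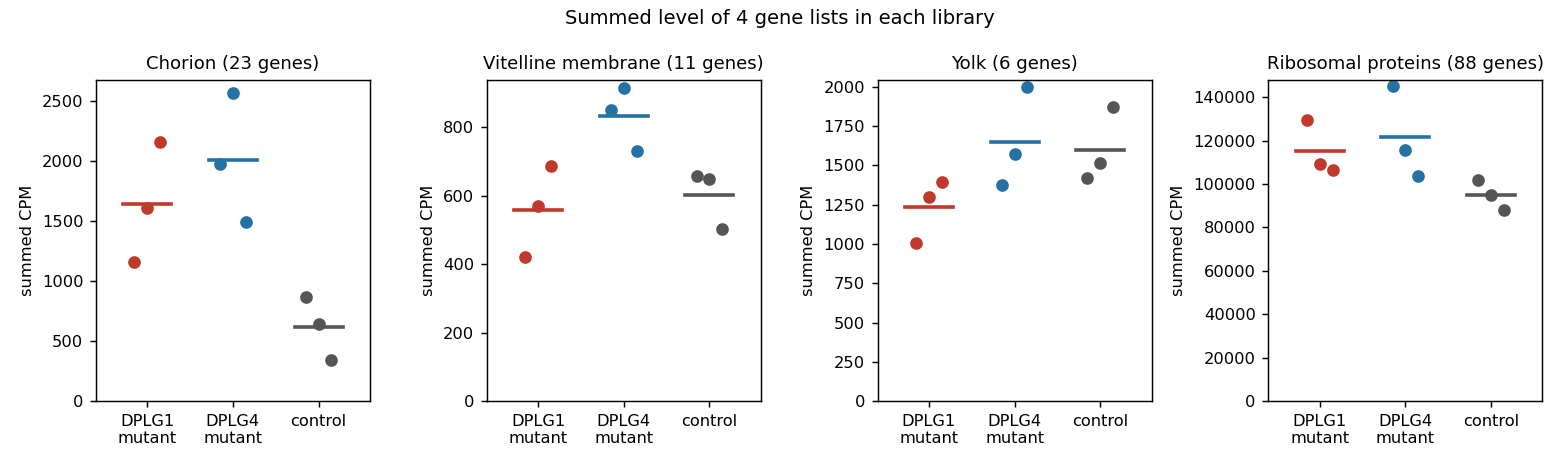
Summed level in CPM of chorion, vitelline membrane, yolk and cytosolic ribosomal protein genes, on axes that start at 0, with a point for each library and a bar at the group mean. The chorion and ribosomal protein sums of all 6 mutant libraries lie above the 3 controls, while the vitelline membrane sums of DPLG1 mutants and the yolk sums of both mutants overlap them.

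Most cytosolic ribosomal protein genes lay slightly above control in both mutants, beside a trend of expression with gene length. The pooled log2 value was above 0 for 80 of 82 tested, and its median was 0.34 (0.29 in DPLG1 mutants, 0.37 in DPLG4 mutants). None was called by edgeR, 42 had an unadjusted p under 0.05, DESeq2 called 10, and for 35 the mutant libraries all lay above the controls. Over all genes these shares were 8.01%, 1.45% and 4.96% on the higher side. Summed, the 88 genes in the files stood at 129459, 109429 and 106424 CPM in DPLG1 mutants and 145126, 115692 and 103883 CPM in DPLG4 mutants, against 101636, 94937 and 88199 CPM in controls. The groups did not overlap, though the lowest mutant and the highest control were close.

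RpS5b, the ovary-enriched paralog of RpS5a, was at 793, 705 and 634 CPM in DPLG1 mutants and 872, 853 and 738 CPM in DPLG4 mutants, against 473, 576 and 531 CPM in controls (log2 0.54, SE 0.11, edgeR adjusted p = 0.138, DESeq2 0.000586). RpL8 was at 1458 ± 111 CPM in DPLG1 mutants, 1497 ± 77.1 CPM in DPLG4 mutants and 1145 ± 111 CPM in controls (log2 0.37, adjusted p = 0.217). These are short genes, and across 8248 genes the deviation of each library from the mean of all followed exon length. The rank correlation across genes, which are not independent replicates, was -0.396, -0.0457 and -0.213 in the DPLG1 mutant libraries, -0.499, -0.111 and 0.435 in the DPLG4 mutant libraries, and -0.209, 0.600 and 0.499 in controls. With this trend removed the ribosomal median was 0.10, where that of all genes was -0.06.

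The lists named next had smaller medians, and their sign turned with the length trend removed. The median of all genes was -0.06 in that fit, and only the mitochondrial ribosomal median lay below it. Mitochondrial ribosomal protein genes had a median of 0.11 (59 of 72 positive) that became -0.08, nuclear genes of oxidative phosphorylation 0.14 (54 of 63 positive) that became -0.05, proteasome genes 0.13 (24 of 32 positive) that became -0.01, and translation factors 0.08 (29 of 45 positive) that became -0.01. None of these genes was called, and 6, 9, 12 and 9 lay higher at an unadjusted p under 0.05, where 8.01% of all genes did, so that 6 of 72 is near the share of all genes. Without control replicate 1 the mitochondrial ribosomal and oxidative phosphorylation medians were 0.25 and 0.24, and without DPLG4 mutant replicate 15 they were 0.07 and 0.06. The translation factor median was 0.03 without DPLG4 mutant replicate 15 and 0.05 without control replicate 2. Named by the smallest p, mRpL39 was at 104 ± 5.65 CPM in DPLG1 mutants, 97.9 ± 11.6 CPM in DPLG4 mutants and 81.4 ± 0.577 CPM in controls (log2 0.31, edgeR adjusted p = 0.270). Prosalpha6, a core proteasome subunit gene, was at 503 ± 24.0, 471 ± 54.5 and 394 ± 19.7 CPM in DPLG1 mutants, DPLG4 mutants and controls (log2 0.30, adjusted p = 0.270). Among translation factors, MCTS1 was at 144 ± 8.36, 245 ± 58.3 and 117 ± 7.34 CPM (log2 0.69, adjusted p = 0.154), and eIF4H1 at 204 ± 12.6, 273 ± 33.9 and 327 ± 21.2 CPM (log2 -0.47, adjusted p = 0.138). Genes of ribosome biogenesis had a median of 0.00, with 22 of 43 positive.

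Of the 37 genes of the mitochondrial genome, 15 were tested and 14 were positive, with a median of 0.52. The median was 0.21 without control replicate 1 and 0.84 without control replicate 3. The cytochrome oxidase gene mt:CoII was at 2143, 1532 and 1964 CPM in DPLG1 mutants and 2596, 2049 and 1690 CPM in DPLG4 mutants, against 1362, 1391 and 1438 CPM in controls (log2 0.51, edgeR adjusted p = 0.270). Its mutant libraries all lay above the controls. In mt:CoI, control replicate 1 stood at 2003 CPM and the other controls at 5686 and 5491 CPM, against 5824 to 8353 CPM in mutants.

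**Figure D4:**
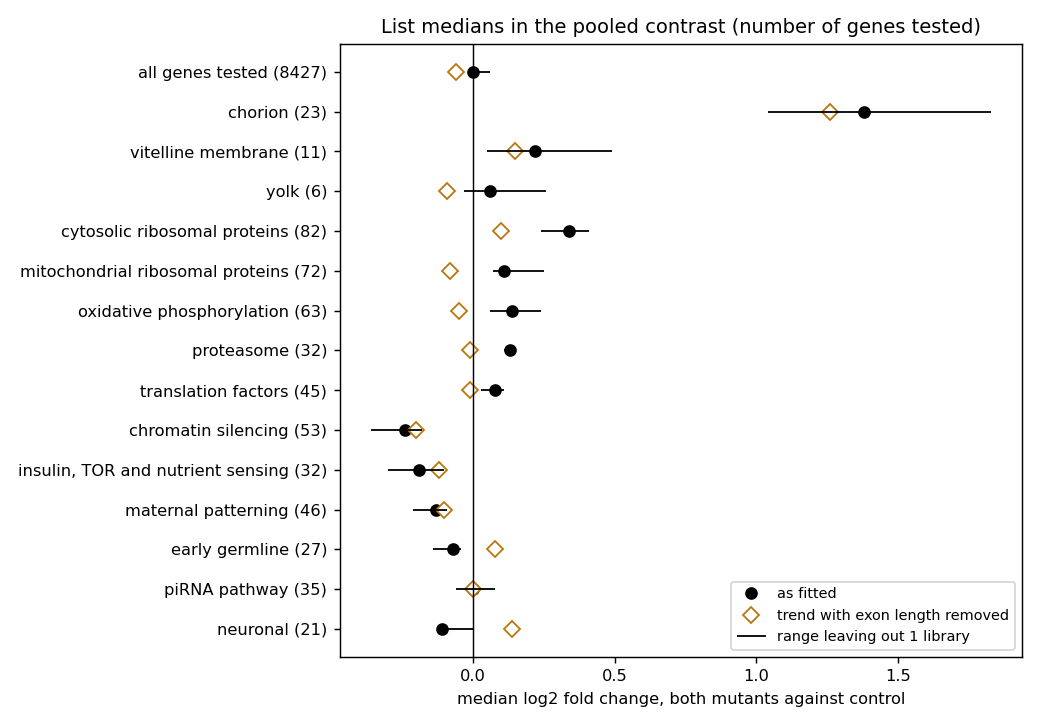
Median log2 fold change of 14 gene lists and of all genes tested in the pooled contrast (filled circles), the range when 1 library is left out (lines) and the median with each library's trend with exon length removed (open diamonds), with the number of genes tested in brackets. Chorion stands at 1.38 and 1.26 on both, whereas cytosolic ribosomal proteins move to 0.10. The mitochondrial ribosomal, oxidative phosphorylation, proteasome and translation factor lists move to 0 or below. All genes tested move from 0.00 to -0.06.

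Chromatin silencing, nutrient sensing and maternal patterning genes lay mostly below control, with no gene called by edgeR. Of 53 chromatin silencing genes tested, mostly of Polycomb and heterochromatin, 43 were negative, with a median of -0.24. It was -0.20 with the length trend removed, where that of all genes was -0.06. The median was -0.36 without control replicate 1 and -0.18 without DPLG4 mutant replicate 15. The summed level of the list overlapped between mutants (7181 to 10224 CPM) and controls (8410 to 11363 CPM). An unadjusted p under 0.05 was met by 8 that lay lower and 2 that lay higher, where 7.97% and 8.01% of all genes met it. The H3K9 methyltransferase gene G9a was at 372 ± 17.2 CPM in DPLG1 mutants, 331 ± 57.4 CPM in DPLG4 mutants and 433 ± 36.5 CPM in controls (log2 -0.30, edgeR adjusted p = 0.300), and the remodeller gene brm at 113 ± 26.9, 155 ± 61.1 and 216 ± 62.2 CPM (log2 -0.70, adjusted p = 0.300). The PRC2 gene escl lay above control, at 26.1 ± 1.10, 18.1 ± 1.60 and 17.7 ± 0.0680 CPM, with DPLG4 mutants near control (log2 0.30, adjusted p = 0.260). HP1c, which encodes a member of the heterochromatin protein 1 family, was at 47.3 ± 1.82, 45.5 ± 4.43 and 39.0 ± 1.5 CPM (log2 0.25, adjusted p = 0.300).

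Of 32 insulin, TOR and nutrient sensing genes 24 were negative, with a median of -0.19 (-0.12 with the length trend removed). The median was -0.12 without DPLG4 mutant replicate 15, -0.30 without control replicate 1 and -0.10 without control replicate 3, and the summed level of the list overlapped between mutants (2602 to 3517 CPM) and controls (2963 to 3848 CPM). An unadjusted p under 0.05 was met by 7, all on the lower side, where 7.97% of all genes met it. The growth regulator Myc was at 102, 112 and 116 CPM in DPLG1 mutants and 102, 134 and 132 CPM in DPLG4 mutants, against 166, 153 and 149 CPM in controls, and the groups did not overlap (log2 -0.42, SE 0.11, edgeR adjusted p = 0.217, DESeq2 0.0299). Its exons overlap those of CG12535 and lncRNA:CR44999. REPTOR, a transcription factor held back by TOR, was at 68.4 ± 5.72 CPM in DPLG1 mutants, 71.2 ± 11.3 CPM in DPLG4 mutants and 89.6 ± 5.59 CPM in controls (log2 -0.36, adjusted p = 0.282). The hypoxia factor gene sima was at 92.5 ± 19.8, 120 ± 52.1 and 181 ± 31.6 CPM, with DPLG4 mutants and controls overlapping (log2 -0.78, adjusted p = 0.290).

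Of 46 maternal patterning genes 30 were negative, with a median of -0.13 (-0.10 with the length trend removed, where that of all genes was -0.06). The median was -0.21 without control replicate 1 and -0.09 without DPLG4 mutant replicate 15 or control replicate 2 or 3. The summed level overlapped between mutants (18284 to 22172 CPM) and controls (21368 to 23969 CPM). An unadjusted p under 0.05 was met by 10, all on the lower side, where 7.97% of all genes met it. The RNA-binding protein gene sqd, needed for gurken RNA localization, was at 752, 764 and 789 CPM in DPLG1 mutants and 720, 818 and 935 CPM in DPLG4 mutants, against 952, 1007 and 1045 CPM in controls (log2 -0.33, SE 0.09, edgeR adjusted p = 0.248). The groups did not overlap, by a narrow margin. The oskar and bicoid RNA transport gene stau was at 142 ± 26.8 CPM in DPLG1 mutants, 177 ± 58.7 CPM in DPLG4 mutants and 262 ± 49.1 CPM in controls (log2 -0.73, adjusted p = 0.270), and the translational repressor gene smg at 1209 ± 234, 1508 ± 459 and 2091 ± 287 CPM (log2 -0.63, adjusted p = 0.281), each with overlap between DPLG4 mutants and controls. Upper quartile scaling moved the median of all genes by 0.12 and these 3 lists to -0.14, -0.08 and -0.02, all below the median of all genes.

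Germline lists had medians near 0. Early germline genes had 10 of 27 positive (median -0.07, turning to 0.08 with the length trend removed and 0.04 with upper quartile scaling). The median of all genes was -0.06 and 0.12 in these 2 fits. The differentiation factor bam was at 62.0 ± 3.55 CPM in DPLG1 mutants, 35.5 ± 4.50 CPM in DPLG4 mutants and 35.8 ± 1.39 CPM in controls, and the mutants differed from each other (edgeR adjusted p = 0.0138). Its pooled value of log2 0.39 (adjusted p = 0.239) thus stands for DPLG1 mutants. The gap junction gene zpg was at 446 ± 40.2, 396 ± 50.7 and 339 ± 24.0 CPM in DPLG1 mutants, DPLG4 mutants and controls (log2 0.31, adjusted p = 0.296).

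The piRNA pathway, which silences transposons in the germline, had 16 of 35 genes positive, a median of 0.00 and no call. An unadjusted p under 0.05 was met by 3 on each side, near the share of all genes (8.01% higher and 7.97% lower). Its argonaute gene piwi was at 241 ± 15.3 CPM in DPLG1 mutants, 183 ± 9.14 CPM in DPLG4 mutants and 182 ± 10.2 CPM in controls (log2 0.20, edgeR adjusted p = 0.300). Meiosis genes had 26 of 38 positive (median 0.06), and there Map205, a microtubule-associated protein gene, was at 330 ± 52.5, 80.9 ± 21.7 and 354 ± 121 CPM (log2 -1.12, adjusted p = 0.165), low in DPLG4 mutants only (adjusted p = 0.0192 between the mutants). The polo kinase inhibitor gene mtrm was at 976 ± 86.6, 915 ± 104 and 742 ± 52.2 CPM (log2 0.35, adjusted p = 0.269). DNA replication and cell cycle genes had 18 of 48 positive (median -0.04, turning to 0.07 with upper quartile scaling, where that of all genes was 0.12). The mitotic phosphatase gene stg was at 419 ± 57.2, 503 ± 110 and 643 ± 72 CPM (log2 -0.49, adjusted p = 0.276).

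Neuronal genes, which the title of the series brings in, were mostly too low in ovary to test. Of 43 in the files 21 were tested and 8 of these were positive. Their median was -0.11, or 0.00 without control replicate 1. It turned to 0.01 with upper quartile scaling, where that of all genes was 0.12. With the length trend removed it was 0.14, against -0.06 for all genes. Of the neuronal genes Gabat alone was called. Csp, which encodes the cysteine string protein of synaptic vesicles, was at 141, 168 and 173 CPM in DPLG1 mutants and 177, 180 and 216 CPM in DPLG4 mutants, against 236, 238 and 266 CPM in controls. No library overlapped, and Csp did not pass edgeR (log2 -0.49, SE 0.10, adjusted p = 0.149), while DESeq2 gave an adjusted p of 0.00387. The gene fax was at 297 ± 27.4 CPM in DPLG1 mutants, 315 ± 67.3 CPM in DPLG4 mutants and 412 ± 18.9 CPM in controls (log2 -0.43, adjusted p = 0.270).

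Immune genes had no common direction. Summed, the 70 in the files stood at 1254, 1315 and 1323 CPM in DPLG1 mutants and 1147, 1315 and 1321 CPM in DPLG4 mutants, against 1450, 1349 and 1402 CPM in controls. Every mutant library thus lay below the controls in this sum, by a narrow margin. Of 45 genes tested 34 had a log2 value above 0, none was called by edgeR, and the mutant libraries lay wholly above the controls in 4 and wholly below them in 4. Of the 45, 8 on the higher side and 2 on the lower met an unadjusted p under 0.05. Over all genes, 4.96% lay wholly above and 3.16% wholly below, and 8.01% and 7.97% met that p. The median of 0.70 (0.31 without DPLG1 mutant replicate 22) and the share above 0 are not read, since members near 0 in controls could be tested only through mutant libraries. This holds for the 3 antimicrobial peptide genes with values here, which are named for their small p and do not stand for all such genes. The attacin gene AttA was at 2.62, 0.364 and 2.22 CPM in DPLG1 mutants and 0.544, 0.248 and 0.0197 CPM in DPLG4 mutants, against 0, 0.0107 and 0 CPM in controls. The cecropin gene CecA1 was at 0.521, 0.230 and 0.845 CPM in DPLG1 mutants and 1.17, 0.414 and 0.177 CPM in DPLG4 mutants, against 0.0426, 0.0428 and 0.0572 CPM in controls. In both genes all mutant libraries lay above the controls and spread widely. For AttA this rests on 1 count in DPLG4 mutant replicate 7 against 1 count in control replicate 2, both under the floor of 3 counts. For CecA1, control replicates 1 and 3 lay under their floors of 0.135 and 0.166 CPM. Neither gene passed edgeR (adjusted p = 0.217 each). The drosocin gene Dro was at 1.77 ± 1.48 CPM in DPLG1 mutants, 0.478 ± 0.401 CPM in DPLG4 mutants and 0.0369 ± 0.0238 CPM in controls (adjusted p = 0.246).

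RNA of other tissues was uneven between the libraries. The 6 gut markers, which encode digestive enzymes, summed to 0.0829 to 39.1 CPM in DPLG1 mutants, 0.0197 to 27.0 CPM in DPLG4 mutants and 0 to 0.0857 CPM in controls, with betaTry and Jon25Bii at 0 in all controls. The protease gene Jon65Aiv was at 0.0237, 0.0958 and 18.1 CPM in DPLG1 mutants and 3.13, 11.9 and 0 CPM in DPLG4 mutants, against 0, 0.0214 and 0 CPM in controls. It was thus high in DPLG1 mutant replicate 7 and DPLG4 mutant replicates 15 and 3, and at the level of controls in the other mutant libraries. Of 47 gut genes in the files 14 were tested and none was called by edgeR. On the higher side 8 met an unadjusted p under 0.05 and 6 passed DESeq2, where 8.01% and 1.45% of all genes did. No direction is read from these, since genes near 0 in controls could be tested only through the mutant libraries where they are high. The part of gut RNA in the immune and detoxification values was not tested.

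Hemocyte markers lay mostly below control, with sums of 0.711 to 1.28 CPM in DPLG1 mutants, 0.569 to 1.02 CPM in DPLG4 mutants and 1.24 to 2.40 CPM in controls. On average Sr-CI was at 0.148, 0.201 and 0.393 CPM and eater at 0.0405, 0.0210 and 0.0703 CPM in that order. NimC1 went the other way, at 0.254, 0.0166 and 0.0107 CPM. Hml, the hemolectin gene, was at 0.491 ± 0.237, 0.574 ± 0.142 and 1.24 ± 0.582 CPM in DPLG1 mutants, DPLG4 mutants and controls (log2 -1.19, edgeR adjusted p = 0.291). The GATA factor gene srp of the longer hemocyte list stood above control, at 7.49 ± 0.602, 7.58 ± 0.817 and 4.81 ± 1.03 CPM (log2 0.64, adjusted p = 0.242), and that list had a median of 0.02 over 11 genes, from -0.16 to 0.15 without 1 library. Muscle sheath and fat body markers overlapped between the groups, at 66.2 to 85.7 and 44.9 to 62.1 CPM in DPLG1 mutants, 73.4 to 83.1 and 42.5 to 71.9 CPM in DPLG4 mutants, and 62.2 to 75.8 and 46.9 to 75.3 CPM in controls. The median was 0.09 over 25 muscle genes and 0.00 over 6 fat body genes, and 4 testis genes and 0 female tract genes could be tested.

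Detoxification genes had 70 of 91 positive (median 0.21, or 0.09 with the length trend removed and 0.12 without DPLG4 mutant replicate 15), and Ugt305A1 was called lower. An unadjusted p under 0.05 was met by 14 on the higher side and 2 on the lower, where 8.01% and 7.97% of all genes met it. The cytochrome P450 gene Cyp311a1 was at 2.08, 1.97 and 2.45 CPM in DPLG1 mutants and 2.16, 3.16 and 2.77 CPM in DPLG4 mutants, against 0.981, 1.18 and 1.26 CPM in controls, without overlap (log2 1.08, SE 0.20, edgeR adjusted p = 0.122, DESeq2 0.000778). The glutathione transferase gene GstS1 differed little but evenly, at 191 ± 3.46 CPM in DPLG1 mutants, 192 ± 4.93 CPM in DPLG4 mutants and 166 ± 2.17 CPM in controls (log2 0.21, adjusted p = 0.286). Antiviral genes, pst aside, held no call (median 0.05 over the 11 tested). The other 14 lists, which include ecdysone, histone, heat shock, lipid, glycolysis and follicle signalling genes, held no called gene among 340 tested and had medians from -0.15 to 0.36.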

How the data were processed

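Ovary RNA was sequenced from 3 DPLG1 mutant, 3 DPLG4 mutant and 3 control libraries, and the authors deposited raw counts per gene, 17559 genes and 5 summary lines in each file. Per the submitters' processing notes, FastQC, STAR 2.5, HTSeq and DESeq2 were used and 2 builds are named, BDGP6 and GRCh37. What GRCh37 was used for, the annotation release and the strand setting were not given in the sources used here. Summary lines held 11.5% to 13.8% of counts, and 72% in control replicate 1, and stayed out of library sizes and tests. Symbols, positions (BDGP6) and exon overlaps came from the reference annotation, which matched 17253 identifiers and left 306 unmatched.

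The main test was the edgeR 4.0.16 quasi-likelihood test (R 4.3.3) with robust dispersions, TMM scaling and the default expression filter, fitted to 9 libraries in 3 groups (biological coefficient of variation 0.217). Adjusted p-values are Benjamini-Hochberg values over all 8427 genes tested, called under 0.05, and each is two-sided. A shared change needed a pooled call and an unadjusted p under 0.05 with the same sign in each mutant. CPM use TMM library sizes, and ± is the SD of 3 libraries. The floor of 3 counts is 0.0313 to 0.166 CPM per library and covers counting error only. Replicates correlated at 0.976 to 0.994 (log CPM) and differed by more than sampling noise.

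The members, the 44 gene lists and the tests were chosen with earlier results of these data known. Named were called genes (the largest changes without overlap and those with the smallest p), genes filling each direction to 10, up to 4 members of each list with the smallest p, and the targeted genes. All other genes named were chosen after their values were seen. The tests were tested on simulated data. Alternatives included DESeq2 1.42.0 and limma 3.58.1. The libraries are few, so p-values rest on the spread of 3 per group.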

Additional observations from a re-analysis of the deposited data

Results flagged for a closer look

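For 13 of the 16 genes called in the pooled contrast the mutants differed from each other in a direct comparison that uses no control library. The log2 fold change of DPLG1 mutants minus DPLG4 mutants was -13.07 for CG12253 (which rests on 1 count in DPLG1 mutants), 5.85 for CG7492, 5.25 for pst, 3.24 for CG14985, 2.79 for CG7565, 2.69 for Ugt305A1, 1.63 for Arc2 and 0.73 for FBgn0042174. It was -0.84 for Gabat, -2.30 for CG10654, -3.28 for asRNA:CR45330, -5.54 for CG16957 and -6.23 for CG4098. The edgeR adjusted p of these differences ran from 6.52e-07 to 0.0122. FBgn0042174, Gabat and CG7492 are the genes on this list that also changed in each mutant.

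Summed gene lists were examined for a library that stands apart among the 6 mutant libraries, for 30 lists, where chance flags about 1 in 20 groups. Immune genes were lowest in DPLG4 mutant replicate 15, at 1147 CPM, against 1254 CPM in the next library. Female tract genes were at 0 CPM in DPLG1 mutant replicate 5, against 0.0932 CPM in the next, a level of a few counts.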

How the results depend on the processing

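The count of 5 higher and 11 lower genes, 2 and 4 of them shared, held within 1.5 times with DESeq2 size factors, no low-count filter, a minimum of 1 CPM in 3 libraries and library sizes without eggshell and yolk genes. It was 2 and 5 (1 and 1 shared) with upper quartile scaling, 130 and 87 (100 and 66 shared) with DESeq2, 2121 and 2217 (1304 and 1642 shared) with limma voom and sample quality weights, which ran from 0.176 to 6.0, and 3 and 12 (1 and 4 shared) with the trend with exon length removed. Added after seeing the data, limma voom without sample weights called 5 and 15 (2 and 7 shared). With the 6 mutants as 1 group edgeR called 0 and 0, with 668 and 576 at an unadjusted p under 0.05. Taking the larger of the 2 mutants' p-values called 1 higher (FBgn0042174) and 0 lower, with 221 and 133 at an unadjusted p under 0.05. Leaving out 1 library gave 2 to 6 higher and 5 to 10 lower, with 1 to 2 and 1 to 5 shared. The lowest counts came without control replicate 1, 2 or 3 (2 higher each, and 5, 5 and 6 lower) and without DPLG1 mutant replicate 5 or DPLG4 mutant replicate 3 (3 and 5 each). Without DPLG1 mutant replicate 22 there were 4 and 6. The cause was not tested. All 16 genes were among the calls of DESeq2 and of both limma fits. Over named genes and list medians, 821 values were on the same side of the threshold or within the replicate spread, 89 lost significance, 12 gained it and 26 moved. No named gene changed sign, but small medians did: with the length trend removed for mitochondrial ribosomal, oxidative phosphorylation, proteasome, translation factor, yolk, early germline and neuronal genes, with upper quartile scaling for early germline, neuronal and cell cycle genes, with limma weights for muscle and hemocyte genes, and for yolk and hemocyte genes when 1 library was left out. The median of all genes was itself -0.06 with the length trend removed and 0.12 with upper quartile scaling. No paired analysis was made. The groups share at most 1 replicate number, and the labels do not say what these numbers stand for. Genes with a few counts, such as CG32187, could not be compared at this depth.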

Other observations

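A few more groups were looked at after their values were seen, and they are given as values without a test of the group. Of the quaking-related KH genes, the family of qkr58E-1, 5 were tested and 4 lay below control (median log2 -0.28), with qkr58E-1 called. Of 37 spliceosome and SR protein genes 24 lay below control and 13 above (median -0.09, from -0.15 to -0.05 when 1 library was left out). The median was on the same side as SmD3 (log2 -0.58) but smaller in size. The snoRNA genes, counted apart from their hosts, summed to 43.5, 34.1 and 36.2 CPM in DPLG1 mutants and 48.3, 54.8 and 42.6 CPM in DPLG4 mutants, against 232, 25.4 and 23.2 CPM in controls. Control replicate 1 thus stood far above every other library, and the remaining controls lay below all mutants. The median log2 fold change of the 74 snoRNA genes tested was 0.23, which became 0.88, -0.01 and 0.04 without control replicate 1, 2 and 3 and -0.12 with the trend with exon length removed.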
